A study of Mus musculus with 22 samples.

Results

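The gene for the peptide somatostatin, Sst, and the genes for 4 of its receptors, Sstr1, Sstr2, Sstr3 and Sstr4, were followed in bulk RNA sequencing libraries of prefrontal cortex from 22 mice. These 5 genes of the 20565 in the deposited count tables were picked by name, with their cKO against WT values known. Those values are therefore given as a description, without a test. The groups were 6 male cKO, 5 male WT, 6 female cKO and 5 female WT mice. Every animal carried floxed Smc3, was treated with tamoxifen by oral gavage, and was sampled 6 weeks after it; the labels give the mice as 8 weeks old. The cKO mice had Camk2a-cre/ERT2, a Cre that is active only with tamoxifen and is driven by the Camk2a promoter, and the WT mice lacked it. The Camk2a promoter is used chiefly in forebrain excitatory neurons, so interneurons, which make somatostatin, and glia are not its main targets. Smc3 encodes a subunit of cohesin, the ring complex that holds chromosome loops and sister chromatids.

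Somatostatin is a short peptide cut from a longer precursor and released by a class of cortical inhibitory interneurons. Its receptors couple to G proteins of the Gi and Go class, which lower cyclic AMP, open inward-rectifier potassium channels and restrain presynaptic calcium channels. Sstr1 and Sstr4 form one pharmacological subgroup of the family, and Sstr2, Sstr3 and Sstr5 the other. In cortex, Sst marks the interneurons that target distal dendrites, and the receptors lie largely on other neurons, with Sstr3 placed in the primary cilium.

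The promoters of Sst and Sstr2 are shown because their windows held the letters of a full cyclic AMP response element, the site bound by the factor CREB, of which Sst is a textbook target. A promoter of Sstr3 is shown beside them as one with only the shorter letters. Windows of 300 bases, from 250 before to 50 after the annotated start, were taken from RefSeq on build GRCm38.p6; Sst, Sstr2, Sstr3 and Sstr4 had entries. Capitals mark TGACGTCA in the Sst and Sstr2 windows and the shorter TGACG in the Sstr3 window.

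Sst, chr16:23890795-23891094, minus strand: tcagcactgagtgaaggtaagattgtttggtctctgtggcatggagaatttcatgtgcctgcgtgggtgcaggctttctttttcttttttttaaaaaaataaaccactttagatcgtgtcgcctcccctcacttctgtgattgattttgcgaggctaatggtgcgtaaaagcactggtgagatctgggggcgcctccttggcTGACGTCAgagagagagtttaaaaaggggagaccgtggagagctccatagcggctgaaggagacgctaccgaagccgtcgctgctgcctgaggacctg

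Sstr2, chr11:113619077-113619376, plus strand: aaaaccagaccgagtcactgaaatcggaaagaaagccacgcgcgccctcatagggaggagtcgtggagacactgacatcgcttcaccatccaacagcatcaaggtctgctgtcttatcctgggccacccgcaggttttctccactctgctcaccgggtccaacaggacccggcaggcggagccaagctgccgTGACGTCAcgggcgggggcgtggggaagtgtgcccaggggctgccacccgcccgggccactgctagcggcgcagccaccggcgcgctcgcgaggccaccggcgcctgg

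Sstr3, chr15:78544296-78544595, minus strand: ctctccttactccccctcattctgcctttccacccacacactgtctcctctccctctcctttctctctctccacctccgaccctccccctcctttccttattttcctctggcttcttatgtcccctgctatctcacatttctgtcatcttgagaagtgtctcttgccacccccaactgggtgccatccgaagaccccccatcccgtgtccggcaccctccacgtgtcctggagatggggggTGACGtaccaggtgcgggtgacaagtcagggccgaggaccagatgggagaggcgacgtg

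TGACGTCA began 48 bases upstream of the Sst start and 58 bases upstream of the Sstr2 start. Both strands were searched, and every TGACGTCA also contains TGACG on each strand. TGACGTCA was present in 588 of 32851 windows of the same length, or 1.79%, and TGACG in 6837, or 20.8%. A TGACG lay 9 bases upstream of 1 of the 2 annotated starts of Sstr3. The other Sstr3 window and the Sstr4 window held neither motif. A match of letters is a description of the window, not a bound site.

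The libraries held 12771354 to 15028342 counts in male cKO, 12887129 to 14385580 in male WT, 14856706 to 15758213 in female cKO and 13832715 to 16896239 in female WT mice. Levels below are CPM, counts scaled to a common library total after TMM scaling, and all 5 members passed the filter on low counts in every comparison. The targeted gene did not check the labels: Smc3 averaged 142 ± 16.1 CPM in libraries labelled male cKO and 82.5 ± 10.1 CPM in those labelled male WT, and 130 ± 10.1 CPM in libraries labelled female cKO against 74.4 ± 6.37 CPM in those labelled female WT (SD, n = 6, 5, 6 and 5). Reads summed over the gene say nothing of the floxed exons, and every direction below is that of the labels. The sample titles name hypothalamus while the tissue field names prefrontal cortex; Avp and Pmch, hormones made in the hypothalamus, reached at most 0.388 and 0.599 CPM, and Slc17a7, the vesicular glutamate transporter of cortical excitatory neurons, averaged 1390 to 1610 CPM per group. Of the other hypothalamus markers found, Agrp and Ghrh reached at most 0.596 and 0.642 CPM. Pomc reached 15.8 CPM, in male WT 6, and Trh 61.0 CPM, in male cKO 8. Male cKO 8 stood apart, with 302 CPM of Calb2, a calcium-binding protein of some interneurons, and 61.0 CPM of Trh, a hypothalamic peptide gene. The other male cKO libraries had 12.7 to 84.4 CPM of Calb2 and 0.854 to 15.6 CPM of Trh, and male WT libraries 14.7 to 228 and 2.13 to 37.2 CPM.

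Sst, the ligand, was lower in female cKO mice, and its male groups overlapped. In male cKO mice it had 34.8, 130, 152, 136, 181 and 188 CPM (replicates 8, 9, 10, 12, 13 and 14), against 188, 111, 192, 203 and 107 CPM in male WT mice (replicates 1, 3, 4, 5 and 6). The male groups overlapped widely, and cKO 8 stood far below all other libraries of the series. In female cKO mice it had 129, 111, 143, 111, 137 and 153 CPM (replicates 20, 21, 22, 23, 24 and 27), against 154, 195, 206, 214 and 246 CPM in female WT mice (replicates 16, 18, 19, 25 and 26). The female groups did not overlap, although the highest cKO library and the lowest WT library were next to each other. The log2 fold change was -0.22 (SE 0.34) in males and -0.63 (SE 0.11) in females, a level 1.55-fold lower in cKO. On leaving out 1 library the male value ran from -0.34 (without cKO 14) to -0.02 (without cKO 8). It was -0.33 without WT 3 and -0.33 without WT 6, the male WT libraries lowest in Sst. In bulk tissue, fewer cells of a type and less of the RNA per cell cannot be told apart.

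Sstr1, an inhibitory receptor whose counts were low, from 17 to 75 in male cKO libraries, was 4.12-fold lower in male cKO and 4.06-fold lower in female cKO mice. Male cKO mice had 2.96, 4.43, 3.29, 5.08, 1.32 and 2.66 CPM, against 8.53, 19.5, 19.8, 4.80 and 15.8 CPM in male WT mice, in the order of replicates used for Sst. The highest male cKO library, cKO 12, lay above the lowest WT library, WT 5, and the other 5 lay below all WT libraries. Female cKO mice had 3.38, 3.50, 3.94, 4.68, 2.71 and 3.38 CPM, against 14.3, 12.5, 19.95, 17.6 and 9.10 CPM in female WT mice. The female groups did not overlap, and the lowest WT library was well above the highest cKO library. The log2 fold changes were -2.04 (SE 0.39) in males and -2.02 (SE 0.20) in females.

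Sstr2, the high-affinity receptor to which the drug octreotide binds, was lower in every cKO library than in every WT library of the same sex. Male cKO mice had 1.65, 5.48, 7.54, 6.78, 5.90 and 8.12 CPM, against 17.8, 19.7, 32.4, 25.5 and 14.5 CPM in male WT mice. Female cKO mice had 6.91, 6.63, 8.72, 7.70, 4.48 and 8.08 CPM, against 20.3, 25.2, 29.7, 34.2 and 25.3 CPM in female WT mice. The log2 fold changes were -1.89 (SE 0.33) in males and -1.92 (SE 0.16) in females, 3.70-fold and 3.78-fold lower in cKO. The library low in Sst, male cKO 8, was also the lowest in Sstr2, and the male value without it was -1.70. Without that library the male values were -2.02 for Sstr1, 0.29 for Sstr3 and -0.68 for Sstr4.

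Sstr3, the ciliary receptor, did not share the lower level. Male cKO mice had 34.1 to 44.6 CPM with a median of 37.6, against 25.6 to 36.9 CPM with a median of 28.9 in male WT mice. Female cKO mice had 22.9 to 42.5 CPM with a median of 26.6, against 20.5 to 40.2 CPM with a median of 25.3 in female WT mice. The groups of each sex overlapped, with log2 fold changes of 0.31 (SE 0.12) in males and -0.02 (SE 0.18) in females. The female value was -0.17 without cKO 22 and 0.14 without WT 25, the highest library of each genotype.

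Sstr4, the other member of the subgroup of Sstr1, lay between these patterns. Male cKO mice had 2.18 to 9.90 CPM with a median of 4.95, against 3.66 to 14.9 CPM with a median of 9.39 in male WT mice. Female cKO mice had 4.75 to 7.46 CPM with a median of 6.44, against 4.72 to 11.3 CPM with a median of 8.57 in female WT mice. The groups overlapped in both sexes, and the log2 fold changes were -0.72 (SE 0.41) in males and -0.42 (SE 0.20) in females.

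**Figure D1:**
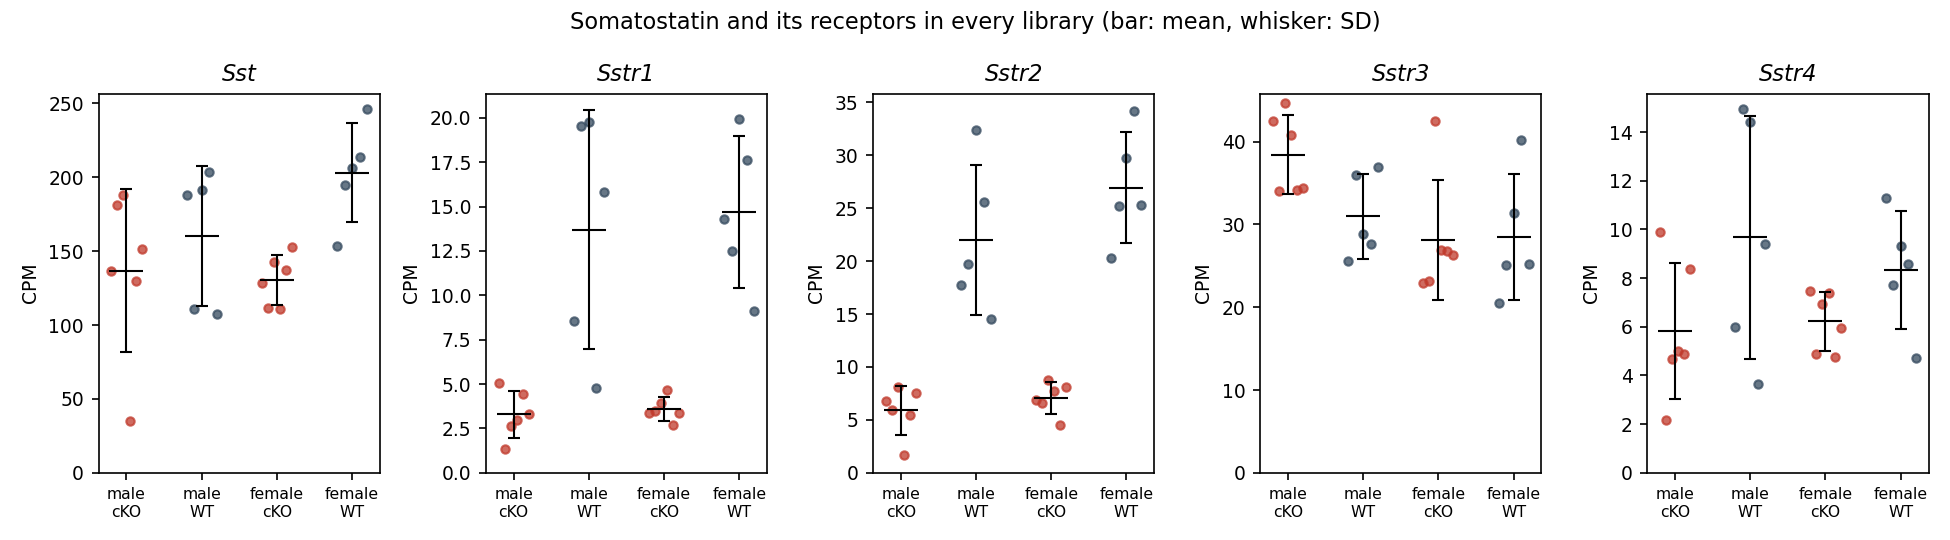
Level of each of the 5 genes in CPM (y axis, from 0) by sex and genotype; each point is a library, bars are means and whiskers SD (n = 6, 5, 6 and 5). Sstr2 separated the genotypes in both sexes, Sst and Sstr1 in females, and Sstr3 and Sstr4 in neither.

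Of the 5 genes, 1 in males (Sstr2) and 3 in females (Sst, Sstr1 and Sstr2) were lower without overlap of the groups, where 1.35% of 16098 genes in males and 2.70% of 16123 in females were. With an adjusted p under 0.05 in edgeR's quasi-likelihood test, 2 of the 5 (Sstr1 and Sstr2) were called in males and 3 (Sst, Sstr1 and Sstr2) in females, beside 0.584% and 3.37% of all genes tested. The called members were all lower in cKO, as were 0.503% of all genes in males and 2.75% in females. Since the genes were picked on this contrast, nothing is read from these counts.

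**Figure D2:**
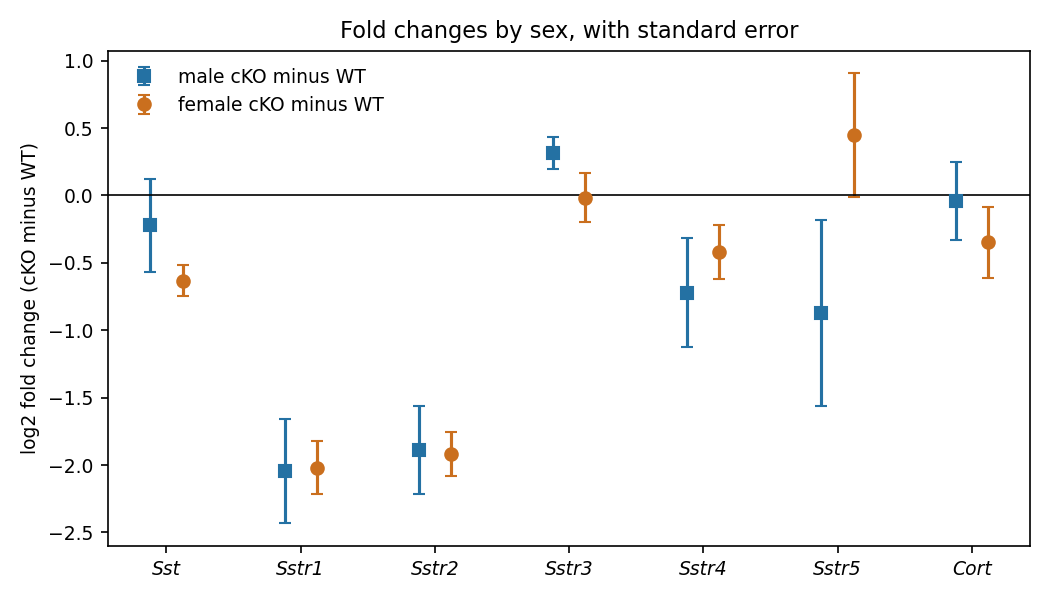
Fold change of each gene (y axis, log2 of cKO over WT) for males and females, with whiskers of 1 SE. Sstr1 and Sstr2 lie near -2 in both sexes, Sst at -0.22 and -0.63, and Sstr3 at 0.31 and -0.02.

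The genotype effect was compared between the sexes in 1 fit of all 4 groups. This difference is made from the same cKO against WT values on which the genes were picked, so it too is a description for the 5 members. The effect in females minus that in males was 0.02 on the log2 scale for Sstr1 (SE 0.45) and -0.03 for Sstr2 (SE 0.38). It was -0.41 for Sst (SE 0.38), -0.33 for Sstr3 (SE 0.23) and 0.31 for Sstr4 (SE 0.48). The size of each was under 1.5 times its SE. Over all genes, edgeR's quasi-likelihood test of this difference called 0 of 16855, or 0%, with 176 at an unadjusted p under 0.05, and DESeq2 called 0. The 176 are a smaller share than the 0.05 that a test gives on average when nothing differs. The 0 calls therefore do not show that the sexes respond alike. On leaving out 1 library the Sst value ran from -0.61 (without male cKO 8) to -0.29 (without male WT 6). The sexes came in separate tables, and sex and any sequencing batch of the tables cannot be told apart.

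In mice without Cre, female WT against male WT, none of the 5 genes passed the threshold. The log2 fold changes and adjusted p of edgeR's test were 0.34 and 0.627 for Sst, 0.29 and 0.686 for Sstr2, and 0.10 and 0.945 for Sstr1. They were -0.12 and 0.851 for Sstr3 and -0.22 and 0.877 for Sstr4. The test called 6 of 15975 genes, 0.0376%, with 1431 at an unadjusted p under 0.05, and DESeq2 called 72 genes and 0 of the 5. The 5 genes had 0 unadjusted p under 0.05.

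Divided by exon length (GENCODE M21, build GRCm38), the levels of the 4 receptors can be set against each other as CPM per kilobase. In female cKO mice Sstr3 was the most abundant at 6.51 ± 1.68, followed by Sstr4 at 4.37 ± 0.853, Sstr2 at 3.31 ± 0.695 and Sstr1 at 1.76 ± 0.323 (SD, n = 6). In female WT mice the order was Sstr2 at 12.6 ± 2.45, Sstr1 at 7.18 ± 2.08, Sstr3 at 6.60 ± 1.76 and Sstr4 at 5.85 ± 1.70 (SD, n = 5). Male cKO mice had the order of female cKO mice, with 8.90 ± 1.10, 4.10 ± 1.97, 2.76 ± 1.08 and 1.61 ± 0.652, and in male WT mice Sstr2 led at 10.3 ± 3.30, then Sstr3 at 7.17 ± 1.19, Sstr4 at 6.80 ± 3.51 and Sstr1 at 6.69 ± 3.29. Neighbours in the male WT order, from Sstr2 down, differed by less than the larger SD of the pair, and Sstr2 exceeded Sstr1 in 3 of the 5 male WT libraries. Sstr1, Sstr3 and Sstr4 in female WT and Sstr4 and Sstr2 in male cKO mice also differed by less than the larger SD of each pair. Sst itself stood far above, at 190 ± 76.6 in male cKO, 222 ± 65.3 in male WT, 181 ± 23.4 in female cKO and 282 ± 46.4 CPM per kilobase in female WT mice.

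Within single libraries Sstr3 exceeded Sstr2 in all 6 male cKO and all 6 female cKO mice, against 1 of 5 male WT and 0 of 5 female WT mice. Sstr1 and Sstr2 made up 24.99 ± 5.27% of the 4 receptors per length in male cKO mice and 55.0 ± 5.60% in male WT mice. In females they made up 31.8 ± 3.52% in cKO and 61.3 ± 2.90% in WT mice. The share of Sstr3 was 52.4 ± 8.72% in male cKO, 24.2 ± 5.16% in male WT, 40.7 ± 5.74% in female cKO and 20.4 ± 2.90% in female WT mice. The sum of the 4 receptors was 17.4 ± 3.38 in male cKO and 30.9 ± 8.48 in male WT, and 15.9 ± 2.79 in female cKO and 32.2 ± 6.16 CPM per kilobase in female WT mice. The ranges of the sum did not overlap in either sex, the highest cKO libraries being at 22.4 in males and 20.7 in females and the lowest WT libraries at 22.6 and 25.4. These quantities rest on the same contrast and are a description.

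**Figure D3:**
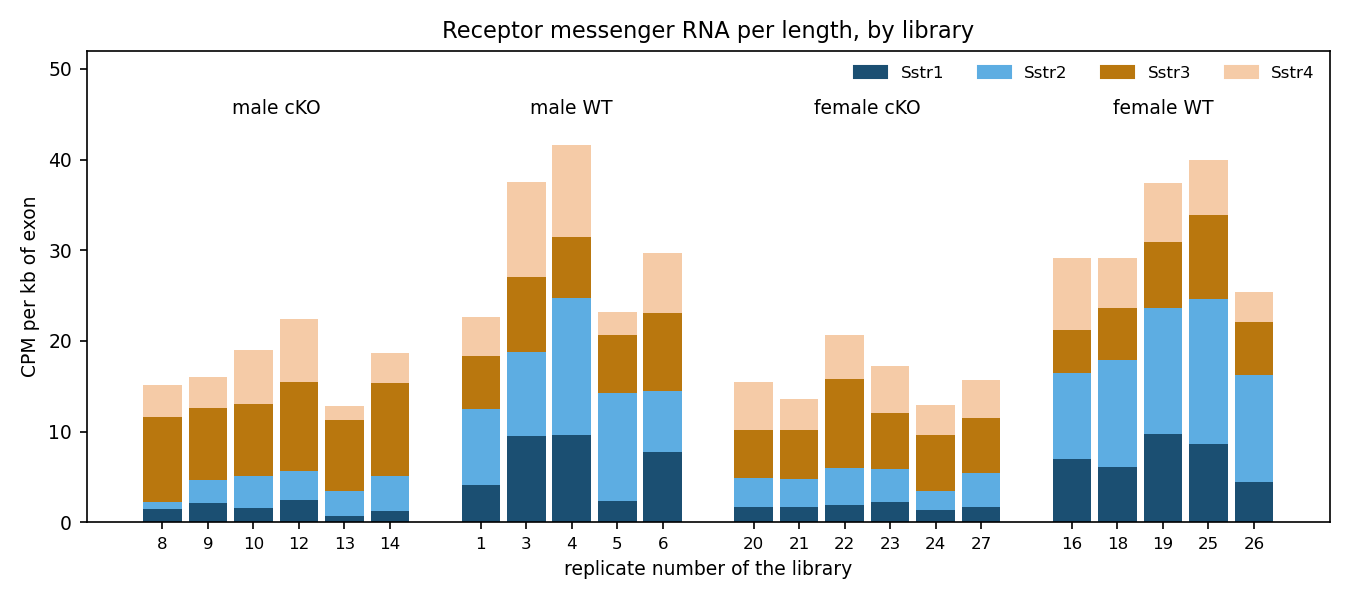
Stacked levels of Sstr1, Sstr2, Sstr3 and Sstr4 in CPM per kilobase of exon (y axis) in every library, ordered by sex and genotype. The Sstr1 and Sstr2 layers are thin in all cKO libraries, at 14.6 to 35.3% of the stack, against 48.9 to 63.9% in all WT libraries.

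The members were also compared among libraries of the same genotype and sex, as deviations of log2 CPM from the group mean, over 10 pairs in each genotype and 20 relations in all. In cKO mice Sstr1 and Sstr4 had a Pearson r = 0.839 and a Spearman rho = 0.657 (n = 12, permutation p = 0.0103 and 0.0369, Benjamini-Hochberg adjusted p = 0.103 and 0.246). That r was 0.394 without the 2 libraries farthest from the median of Sstr1, a step that also narrows the range of Sstr1. It was 0.599 to 0.927 on leaving out each library in turn. The r was 0.860 (exact permutation p = 0.0236) among the 6 male cKO and 0.693 (exact permutation p = 0.126) among the 6 female cKO libraries. The rho was 0.829 and 0.543, without a test. No value was computed within the WT groups of 5 libraries each. In WT mice the same pair varied together (r = 0.938, rho = 0.915, n = 10, permutation p = 0.00152 and 0.00252, adjusted p = 0.0304 and 0.0504). The r was 0.828 without the 2 libraries farthest from the median of Sstr1. The adjusted p lay between 0.0142 and 0.103 on leaving out each library in turn, above 0.05 when any 1 of male WT 1, 3, 4, 5 and 6 and female WT 18 and 26 was left out.

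Sst and Sstr2 had r = 0.885 and rho = 0.818 in cKO mice (n = 12, permutation p = 0.0421 and 0.00554, adjusted p = 0.281 and 0.0554). The r was 0.323 without the 2 farthest libraries and 0.22 without male cKO 8, so it rested on that library. The r was 0.968 (exact permutation p = 0.0333) among male cKO and 0.0763 (exact permutation p = 0.899) among female cKO libraries. The rho was 0.829 and 0.429, without a test. In WT mice the pair had r = 0.658 and rho = 0.733 (n = 10, permutation p = 0.0962 and 0.0510, adjusted p = 0.385 and 0.255). Sstr1 and Sstr2, the receptors with the lowest cKO levels relative to WT, had r of 0.134 in cKO and 0.0806 in WT mice. Summed oligodendrocyte markers (12 genes, all above 10 CPM on average) spread widely among libraries, from 2553 to 12888 CPM in male cKO, 1886 to 10420 in male WT, 4599 to 14860 in female cKO and 3321 to 10750 CPM in female WT mice. An oligodendrocyte score was taken as the mean log2 CPM of these 12 genes. With that score removed, Sst and Sstr2 (adjusted p = 0.0237) and Sstr1 and Sstr4 (adjusted p = 0.0281) in cKO passed the permutation threshold as well. The permutations took no account of the fitting of the score, so these p are approximate. No library, male cKO 8 included, was left out in this setting, and nothing is read from these passes.

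**Figure D4:**
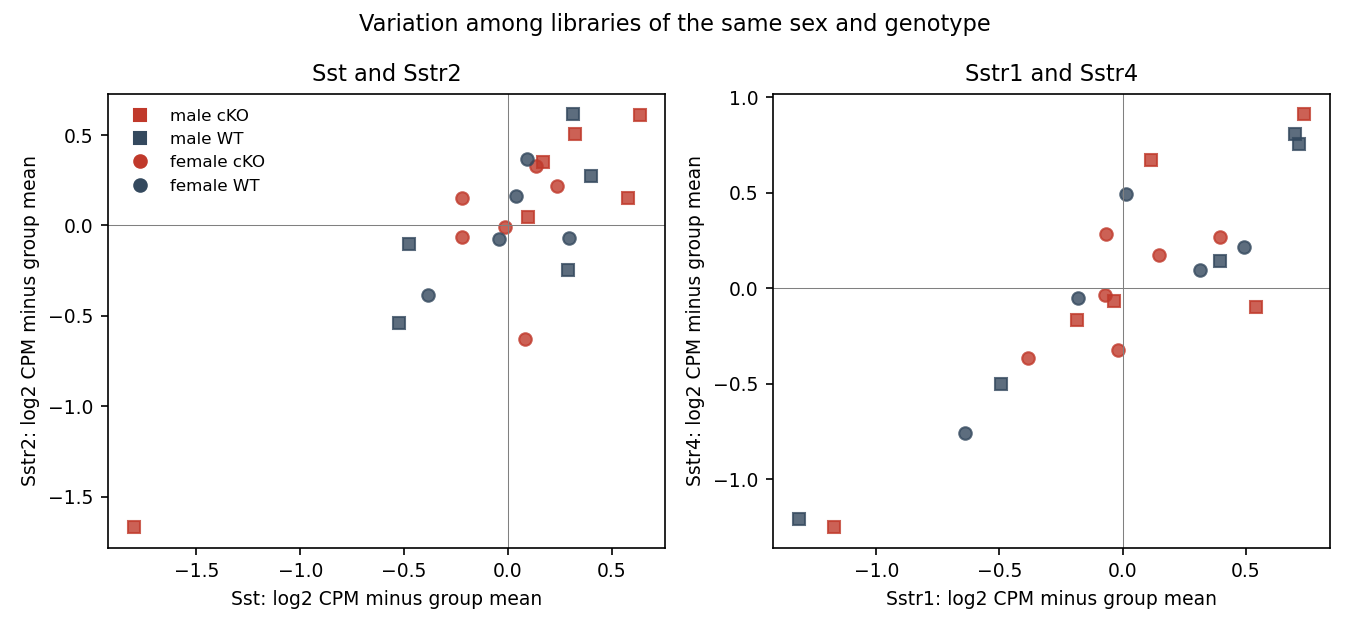
Deviation of log2 CPM from the group mean for pairs of members, 1 point per library, coloured by genotype. Sstr1 and Sstr4 lie along a line in WT mice (r = 0.938), while Sst and Sstr2 in cKO mice are drawn out by male cKO 8.

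Of 12711 genes with a mean count of at least 50, those most like each member over the 22 libraries, by Pearson r of deviations from the group mean, were the following. For Sst they were Rbp4, Gpr137 and Fsd1, at 0.97, 0.95 and 0.95, with Sstr2 at rank 133 and 0.84. For Sstr1 they were Mta3, Pip4k2b and Gas7, at 0.96, 0.95 and 0.94, with Sstr4 at rank 60 and 0.89. For Sstr2 they were Pgrmc2, Cadm1 and Fezf2, at 0.92, 0.92 and 0.90, with Sst at rank 34. The libraries differ in depth and in their level of oligodendrocyte markers. The part of either in these values was not tested, and the values themselves carry no test.

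The other genes of the somatostatin pathway were counted from lists of peptide processing, G proteins, cyclases, channels, phosphatases, kinases and arrestins. Of 50 genes, 49 were tested in males, where 0 were called (8 at an unadjusted p under 0.05, and 2 by DESeq2), with a median log2 fold change of -0.04 beside 0.01 over all genes. In females 1 of 50 fell and 0 rose (11 at an unadjusted p under 0.05, and 3 called by DESeq2), with a median of 0.01 beside 0.01. That is a share no higher than the 2.75% of all genes called lower in females. The gene that fell was Pcsk2, a convertase that cuts peptide precursors in neurons, at 255 ± 37.2 CPM in female cKO and 413 ± 121 CPM in female WT mice (log2 fold change -0.69, SE 0.16, edgeR adjusted p = 0.0327). Its value in males was -0.44 (adjusted p = 0.379). The female call was lost on leaving out any of cKO 21, 23, 24 or 27 or WT 18 or 19, with the adjusted p from 0.0135 to 0.0837 over all 11, and with the oligodendrocyte score in the fit (0.0923).

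Cort, the closest relative of Sst and a ligand of the same receptors, averaged 3.48 ± 1.44 CPM in male cKO and 3.61 ± 1.14 CPM in male WT mice, and 4.22 ± 0.957 CPM in female cKO and 5.38 ± 2.49 CPM in female WT mice. Its adjusted p was 0.993 in males and 0.570 in females by edgeR. Sstr5, the remaining receptor, was scarce, at 1.26 ± 0.909 in male cKO and 2.30 ± 2.19 CPM in male WT, and 3.46 ± 1.70 in female cKO and 2.55 ± 1.46 CPM in female WT mice (adjusted p = 0.821 and 0.695 by edgeR). Cpe, the carboxypeptidase that trims peptide precursors, had log2 fold changes of 0.09 and 0.07, and Gnao1, the Go alpha subunit, -0.02 and -0.01, in males and females. Among the adenylyl cyclases, Adcy1 had -0.35 in males (adjusted p = 0.721) and -0.46 in females (0.0510), and Adcy7 -0.42 (0.0892) and -0.47 (0.0877). Kcnj3, a potassium channel opened by these receptors, had -0.13 in males and -0.23 in females (adjusted p = 0.936 and 0.120).

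A list of 16 genes, other than Sst, was taken as markers of the interneurons that make somatostatin. Of these 16, 3 fell and 0 rose in females (7 at an unadjusted p under 0.05, and 4 by DESeq2), where 2.75% of all genes tested were called lower. In males 0 changed (3 at an unadjusted p under 0.05, and 0 by DESeq2). The median log2 fold change was -0.38 in females and -0.19 in males, beside 0.01 over all genes in each sex. Below 0 lay 14 of the 16 in each sex, beside 47.1% of all genes in females and 47.9% in males. The list was chosen with earlier results of these data known, and its genes can vary together among libraries. Nothing is therefore read from these counts and shares. Bulk libraries do not show which cells this RNA came from. Whether the markers are confined to these interneurons was not tested. Elfn1, a synaptic adhesion protein of these cells, fell to 24.5 ± 1.81 CPM in female cKO mice, against 37.9 ± 4.85 CPM in female WT mice (log2 fold change -0.63, SE 0.09, adjusted p = 0.00167 by edgeR), a size near that of Sst. Etv1, a transcription factor, fell to 48.5 ± 6.39 CPM in female cKO mice, against 73.8 ± 14.3 CPM in female WT mice (-0.60, SE 0.12, adjusted p = 0.0159 by edgeR, and 0.194 with all 4 groups in 1 fit). Crh, a neuropeptide, fell to 1.83 ± 0.385 CPM in female cKO mice, against 3.64 ± 1.16 CPM in female WT mice (-0.99, SE 0.23, adjusted p = 0.0318 by edgeR). The Crh call was lost on leaving out any 1 of cKO 21, 22, 23 or 27 or WT 18, 19 or 25 (adjusted p 0.0122 to 0.0969 over all 11), with the oligodendrocyte score in the fit (0.0697), and with all 4 groups in 1 fit (0.282).

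In males the values of Elfn1, Etv1 and Crh were -0.54, -0.38 and -0.03 (adjusted p = 0.261, 0.741 and 0.998 by edgeR). The summed level of the 16 markers was 430 to 806 CPM in male cKO and 442 to 745 CPM in male WT mice, and 413 to 508 CPM in female cKO and 491 to 627 CPM in female WT mice. The library with the lowest Sst, male cKO 8, had the sum of 806 CPM, of which Calb2 made up 302 CPM. Its sum without Calb2 was 504 CPM, inside the range of the other libraries of the series. Of the 16 markers, 5 were at their lowest of the series in that library (Chodl, Lhx6, Satb1, Tac1 and Pdyn). Another 5 were at their highest there (Cbln4, Calb2, Hpse, Etv1 and Crh). The part of these marker levels in the Sst values was not tested. Elfn1 kept its call with any 1 library left out and under the 5 other settings tried.

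**Figure D5:**
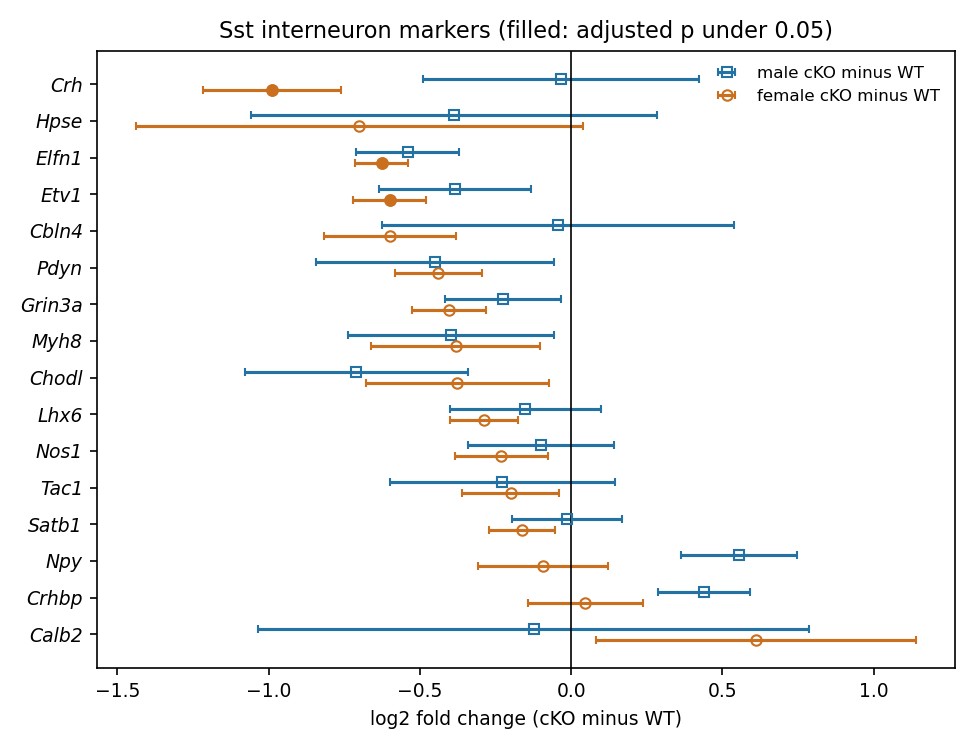
Log2 fold change of cKO over WT (x axis) of the 16 genes, other than Sst, taken as markers of the interneurons that make somatostatin. Whether they are confined to these cells was not tested. Males and females are shown, with filled points at an adjusted p under 0.05. In females Elfn1, Etv1 and Crh pass the threshold and 14 of the 16 markers lie below 0.

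Markers of other cells were examined beside these values. Other interneuron markers had 2 of 12 called lower in females (4 at an unadjusted p under 0.05, and 4 by DESeq2), where 2.75% of all genes tested were. These were Vip at 14.04 ± 3.68 CPM in cKO and 35.1 ± 14.3 CPM in WT mice and Lamp5 at 42.7 ± 10.5 CPM in cKO and 93.0 ± 34.8 CPM in WT mice (adjusted p = 0.00911 and 0.0124 by edgeR). In males 0 of 12 were called (1 at an unadjusted p under 0.05, and 1 by DESeq2). The summed level of these 12 was 775 to 2178 CPM in male cKO and 763 to 1709 CPM in male WT, and 925 to 1467 CPM in female cKO and 879 to 1394 CPM in female WT mice. Excitatory neuron markers had 1 of 14 called lower in females, Emx1 (log2 fold change -0.69, adjusted p = 0.0499 by edgeR), with 4 at an unadjusted p under 0.05 and 2 by DESeq2. Of the 14, 12 lay below 0 in females and 9 in males, beside 47.1% and 47.9% of all genes. Nothing is read from these counts, since the lists were chosen with earlier results of these data known. Whether the calls of Vip, Lamp5 and Emx1 held with a library left out was not tested. Oligodendrocyte markers had 12 of 12 above 0 in females with a median of 0.44 and 0 called (1 at an unadjusted p under 0.05, and 0 by DESeq2). With the oligodendrocyte score in the fit, the log2 fold changes were -0.34 for Sst, -1.85 for Sstr1, -1.97 for Sstr2, 0.37 for Sstr3 and -0.56 for Sstr4 in males. In females they were -0.57, -1.98, -1.87, 0.17 and -0.46 in the same order. Sstr1 and Sstr2 thus stayed between -1.85 and -1.98, and the sign of the female Sstr3 value differed from that without the score.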

How the data were processed

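Libraries of 22 mice were compared, each animal with its own number. The authors deposited raw counts, whole numbers for each gene, in a table for either sex. Per the submitters' processing notes, the tools were cutadapt, STAR, HTSeq and DESeq2 on build GRCm39; their order and versions, the annotation and the strandedness are not stated in these sources. One column, numbered 20, was used as a female cKO replicate, the group its name shows. The p-values measure the spread among these animals. Across the 50 replicate pairs, a chi-square of the counts divided by its degrees of freedom was never below 5.81, more than sampling noise gives.

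The counts were TMM-scaled after edgeR's filterByExpr (at least 10 counts, 15 in total) and tested with edgeR 4.0.16 (limma 3.58.1, R 4.3.3), quasi-likelihood F test, Benjamini-Hochberg adjustment over all genes, threshold 0.05. Each SE was obtained by dividing the log2 fold change by the root of its F statistic. DESeq2 1.42.0 was an alternative. Correlations used 100000 permutations within sex (SciPy 1.17.1). Fits were tested on simulated data. A prior count of 0.5 was added for log2 CPM. Totals of 12771354 to 16896239 counts limit precision for low genes.

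The members and all lists were chosen with earlier results of these data known. Named genes are the members, every pathway or Sst interneuron gene past the threshold, and the 3 genes most alike to Sst, Sstr1 and Sstr2; other named genes were chosen after their values were seen. Lists of astrocyte (8 genes), microglia (8), vascular (5) and striatum (8) markers had 0 called in either sex; at an unadjusted p under 0.05 there were 1, 2, 0 and 0 in males and 2, 0, 0 and 0 in females, and DESeq2 called 1, 0, 0 and 0 in each sex. Of 8 hypothalamus markers, 6 were found and 2 tested, with Trh lower in females (adjusted p = 0.0175 by edgeR). All tests were 2-sided.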

Additional observations from a re-analysis of the deposited data

Results flagged for a closer look

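Sstr3 in female cKO 22 stood apart from the other 5 libraries of its group, at 42.5 CPM, where the nearest was at 26.9 CPM and the lowest at 22.9 CPM. The gap to the nearest library was 0.797 of the range of the group. Of 20 combinations of gene and group examined this was the only one, and chance gives about 1 in 20. Without this library the female log2 fold change of Sstr3 was -0.17, where it was -0.02 with it.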

How the results depend on the processing

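The cKO against WT fold changes of the 5 genes kept their sign under the scaling, filter, test, covariate and single-fit alternatives and on leaving out each library, except that of Sstr3 in females, which ran from -0.17 to 0.17. The number of genes called moved more. In males it was 94, against 335 with DESeq2, 260 with the oligodendrocyte score as a covariate, 276 with all 4 groups in 1 fit, and 18 (without cKO 12) to 201 (without cKO 8) on leaving out a library. In females it was 543, against 919 with DESeq2, 294 with all 4 groups in 1 fit, and 324 (without WT 19) to 681 (without WT 26) on leaving out a library. Female WT against male WT had 6, against 72 with DESeq2 and 5 to 7 on leaving out a library. Called correlations numbered 1, against 3 with the oligodendrocyte score removed and 0 to 2 on leaving out a library. The cause was not tested. The genotype by sex test called 0 genes under every alternative, which does not show that the sexes respond alike. For single genes and pairs, a call was lost 24 times and gained 4 times over all alternatives. No alternative was added later. No paired analysis was possible because the groups share no replicate number. Sstr1, Sstr2 and Sstr4 had as few as 17, 25 and 28 counts in a library, which limits their precision.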

Other observations

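Gfap, the intermediate filament of astrocytes, had 267 ± 63.4 CPM in male cKO and 137 ± 38.6 CPM in male WT mice, and 299 ± 67.7 CPM in female cKO and 172 ± 51.1 CPM in female WT mice. Its log2 fold changes were 0.97 in males and 0.80 in females, and it missed the threshold in both (adjusted p = 0.0542 and 0.0669 by edgeR). Npy, a peptide of some somatostatin interneurons, had a log2 fold change of 0.55 in males (adjusted p = 0.317) and -0.09 in females (0.875). Lamp5 in males had 52.04 ± 18.5 CPM in cKO and 108 ± 39.0 CPM in WT mice (log2 fold change -1.04, adjusted p = 0.184 by edgeR).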
